A study of Mus musculus with 15 samples.

Results

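Of 15 mouse kidneys profiled on a 1-colour expression array, 6 held transcripts of the adrenal gland, and these 6 are described here against the other 9. They were chosen by measured values. A kidney was taken as adrenal-bearing where the mean log2 value of Star, Cyp11a1 and Hsd3b1 exceeded the median of all 15 kidneys, 4.62, by more than 1 log2 unit. The wild-type mice among them were replicates 2 and 3, and the knockout mice were replicates 10, 11, 12 and 13. Where 6 values follow each other below, they stand in this order. Their mean over the 3 genes lay between 7.59 and 10.2, against 4.21 to 4.67 in the others, so that knockout replicate 11 at 7.59 and knockout replicate 15 at 4.67 were the nearest kidneys on either side. The series holds 7 wild-type (Grhl1+/+) and 8 knockout (Grhl1-/-) mice, all about 6 months old, with no treatment named. Grhl1 is a transcription factor gene of the grainyhead family, active in epithelia. Strain, sex, litter, the deleted part of the gene and the manner of dissection are not stated in the material used here. Each array is taken as 1 animal, since the series' design counts mice. "Adrenal-bearing" names the transcripts measured and not where they came from, which was not tested.

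The adrenal gland lies on the upper pole of the kidney and is made of an outer cortex and an inner medulla. The cortex takes up cholesterol and turns it into steroid hormones: cells of the zona glomerulosa make aldosterone under angiotensin II and potassium, and cells of the zona fasciculata make corticosterone under the pituitary hormone ACTH. Chromaffin cells of the medulla make adrenaline and noradrenaline and store them in dense granules with chromogranins. Mouse kidney has steroid-metabolising and monoamine enzymes of its own, so that only part of an adrenal gene list separates the organs.

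Each value is the log2 level of a probe set after robust multi-array averaging (RMA). A difference is adrenal-bearing minus other kidneys, fitted with genotype as a covariate, and SE is its moderated standard error. Because the kidneys were sorted by values of these arrays, no p-value is given for this contrast. A probe set was counted where its difference was at least 1 log2 unit and the 6 values did not overlap the other 9. Of 23521 probe sets, 18 (0.0765%) met both conditions with higher values in adrenal-bearing kidneys and 0 with lower values. Without the size condition, 29 (0.123%) were higher without overlap and 4 (0.017%) were lower. These shares describe the sorting and support nothing about the genes. The 18 probe sets belonged to 18 genes. For 17 of them the probe set was the gene's only or brightest one. Of these 17, 16 belonged to the cortex and medulla lists drawn up for this comparison, with Prss35 the exception. All 15 lists together held 166 of the 22180 genes measured. The lists were chosen with earlier results of these data known and include the rule genes. The count of 16 is therefore a description and no independent evidence about the genes. In bulk tissue, more adrenal cells and more RNA per adrenal cell cannot be told apart.

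**Figure D1:**
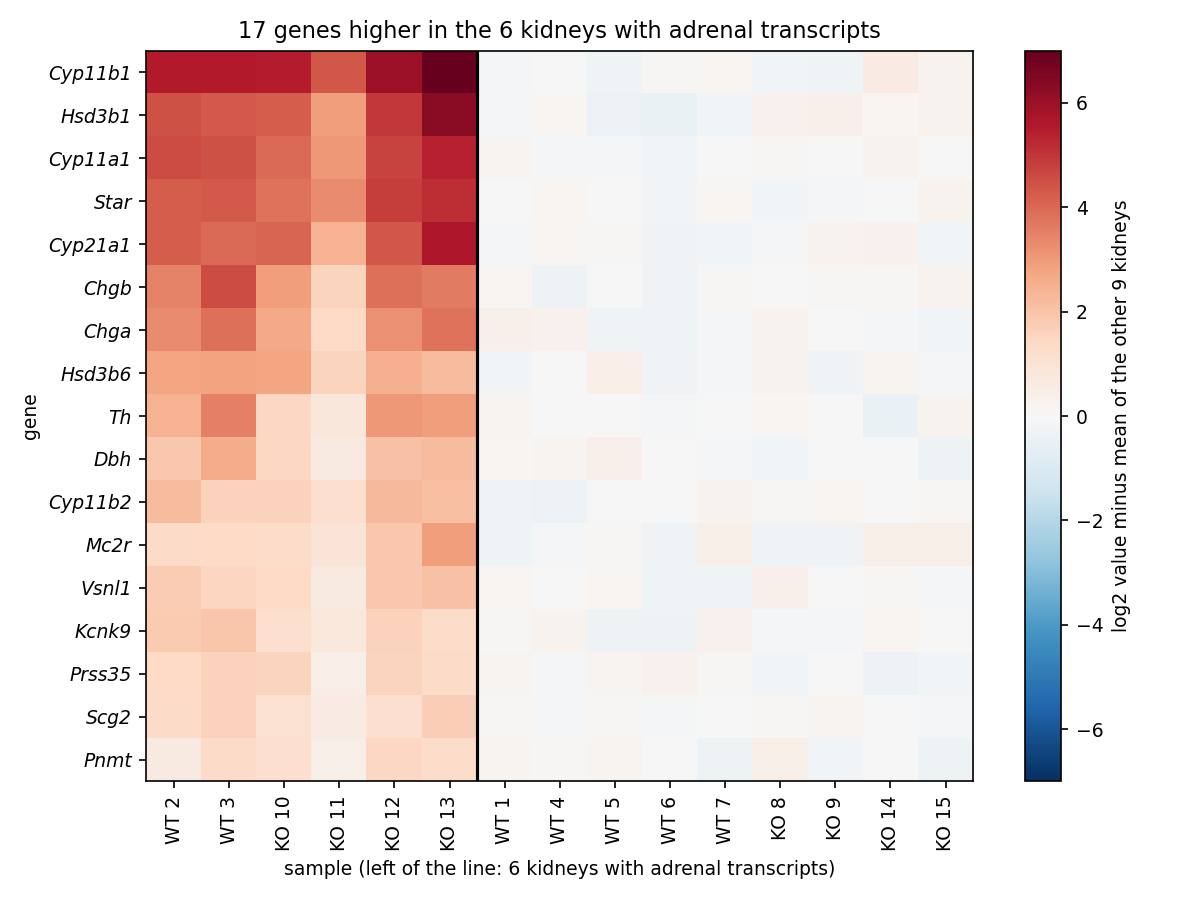
Each row is 1 of the 17 genes counted and each column 1 kidney (WT, wild type; KO, knockout), coloured by its log2 value minus the gene's mean over the other 9 kidneys. The 6 adrenal-bearing kidneys stand left of the line, where knockout replicate 11 has the lowest value of the 6 for all 17 genes.

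The genes of steroid synthesis gave the largest differences. Of 13 genes in that list 11 were measured, and 7 met both conditions, with a median difference of 2.48 over the 11. The rule used 3 of the 7, Star, Cyp11a1 and Hsd3b1, which fixes much of that value. Over the 8 genes it did not use, 4 met both conditions and the median difference was 1.18. Over all 22180 genes, 17 met both conditions and the median was -0.01. The mean over these 8 genes was 7.66 ± 0.37 (SD, n = 6) in adrenal-bearing kidneys and 5.73 ± 0.16 (SD, n = 9) in the others.

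Cyp11b1, the 11-beta-hydroxylase that completes corticosterone, read 9.73 and 9.78 in the wild-type pair and 9.70, 8.57, 10.20 and 11.55 in the 4 knockout kidneys. In the other 9 kidneys its lowest, median and highest values were 3.88, 4.15 and 4.75. The groups lay 3.82 log2 units apart at their nearest values, and the difference of 5.68 (SE 0.32), or 51.3-fold, was the largest of all genes. In the other kidneys its mean stood above only 17.8% of all probe sets, and in adrenal-bearing kidneys above 92.6%.

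Star, the protein that carries cholesterol into mitochondria, read 9.85 and 9.91 in the wild-type pair and 9.41, 8.89, 10.42 and 10.79 in the 4 knockout kidneys, against 5.38 to 5.86 elsewhere. Cyp11a1, the side-chain cleavage enzyme that makes pregnenolone, read 9.43, 9.31, 8.83, 7.88, 9.60 and 10.32 in the same order, against 4.66 to 5.09 elsewhere. A second, dimmer Cyp11a1 probe set did not separate the kidneys, at 4.59 to 4.97 against 4.31 to 4.68. Hsd3b1, the 3-beta-hydroxysteroid dehydrogenase of adrenal and gonad, read 7.51, 7.38, 7.32, 6.00, 7.99 and 9.39, against 2.58 to 3.42 elsewhere. These 3 genes chose the kidneys, and their gaps are therefore given as a description only.

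Cyp21a1, the 21-hydroxylase shared by both hormone routes, had no part in the rule. It read 8.78 and 8.53 in the wild-type pair and 8.64, 6.99, 8.91 and 10.22 in the 4 knockout kidneys, against 4.29 to 4.86 in the other kidneys, a difference of 4.09 (SE 0.33). The order of the kidneys followed that of the rule genes at both ends, with knockout replicate 13 highest and knockout replicate 11 lowest.

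Some genes known from the aldosterone-making zona glomerulosa were higher, by less than Cyp11b1, and others of that zone did not separate the sets. Hsd3b6, the dehydrogenase of that zone, read 6.33, 6.37, 6.31, 5.11, 6.06 and 5.79 in the 6 kidneys, against 3.30 to 4.03 elsewhere (difference 2.48, SE 0.18). Cyp11b2, the aldosterone synthase, read 6.77, 6.18, 6.20, 5.76, 6.84 and 6.66, against 4.19 to 4.81 elsewhere (difference 1.81, SE 0.15). The Cyp11b and Hsd3b genes are close paralogs. Cross-hybridisation between them was not tested here.

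Kcnk9, a background potassium channel of glomerulosa cells, read 6.59, 6.70, 5.94, 5.52, 6.37 and 6.06 in that order, against 4.40 to 5.07 elsewhere (difference 1.48, SE 0.16). Vsnl1, a calcium sensor of the same zone, read 7.41, 7.13, 7.05, 6.25, 7.51 and 7.69, against 5.32 to 6.01 elsewhere (difference 1.52, SE 0.18). In knockout replicate 13, where Hsd3b1 and Cyp11b1 were highest of all kidneys, Hsd3b6 and Kcnk9 were lower than in both wild-type kidneys. Values overlapped for Dab2, Wnt4 and Shh of the zone list and for the channel genes Cacna1h and Kcnj5 and the angiotensin receptor gene Agtr1a. Their differences were 0.00074, 0.14, -0.05, 0.39, 0.04 and -0.01.

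**Figure D2:**
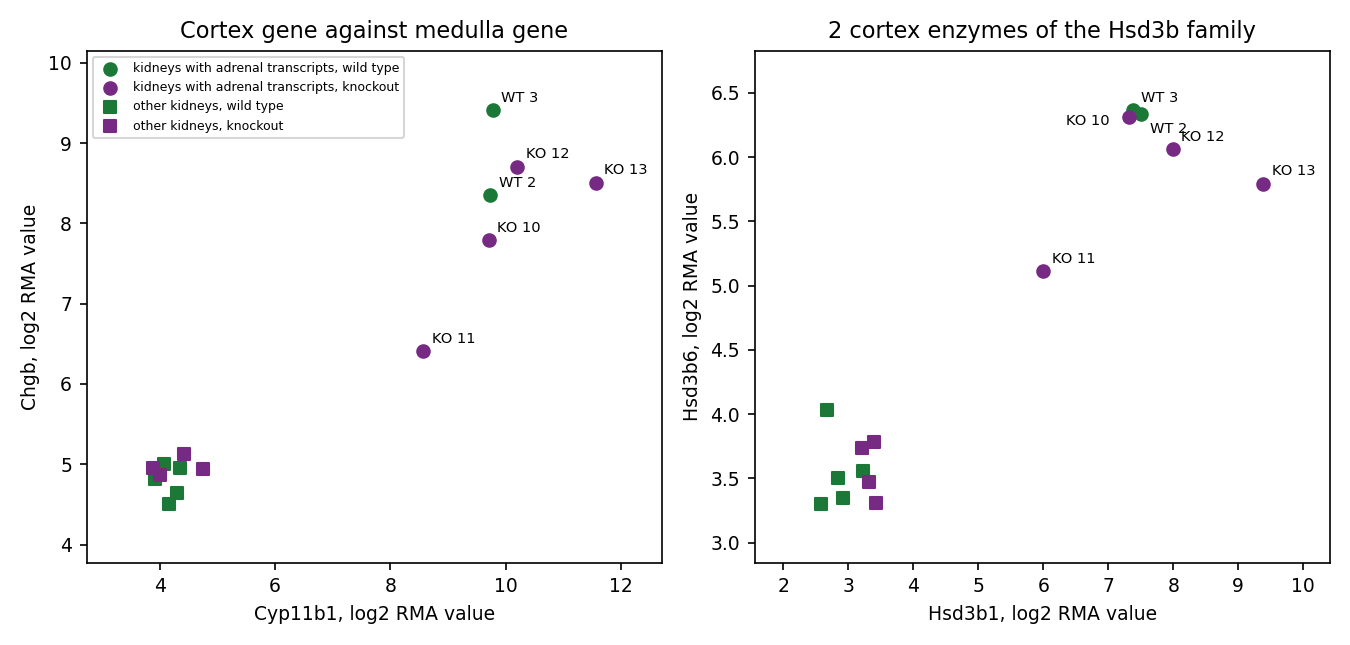
Each point is 1 kidney, with log2 RMA values of Cyp11b1 against Chgb on the left and of Hsd3b1 against Hsd3b6 on the right; circles are adrenal-bearing kidneys, squares the others, green wild type and purple knockout. Knockout replicate 13 is farthest right in both panels, while wild-type replicate 3 has the highest Chgb (9.41) and the highest Hsd3b6 (6.37).

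The response pathway of ACTH was represented by its receptor. Mc2r, the ACTH receptor, read 6.52 and 6.60 in the wild-type pair and 6.48, 6.09, 7.06 and 8.14 in the 4 knockout kidneys, against 4.89 to 5.60 elsewhere (difference 1.57, SE 0.25). Its accessory protein gene Mrap overlapped, at 6.99 to 7.93 against 6.94 to 7.49. In the list of ACTH and angiotensin signalling, 2 of 12 measured genes met both conditions (Mc2r and Kcnk9), and the median difference was 0.16. Of all 22180 genes 17 met both conditions, with a median difference of -0.01. Agtr1b, the angiotensin receptor of mouse glomerulosa, differed by 0.13 with overlapping values.

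Regulators and cofactors of steroid synthesis overlapped between the sets. Nr5a1 (SF-1), the transcription factor that defines steroid-making cells, had a lowest, median and highest value of 6.15, 6.42 and 7.25 in adrenal-bearing kidneys and 5.67, 5.90 and 6.41 in the others. Nr0b1 (DAX-1), a repressor that acts with it, differed by 0.20 (SE 0.21), with 5.63 in knockout replicate 13 and at most 4.67 in any other kidney. Fdx1, the electron carrier of the mitochondrial steps, differed by 0.26. Hsd3b2 was bright in every kidney and lower in the 5 kidneys low in Y-linked transcripts (9.35 to 10.05, against 11.16 to 11.47), and knockout replicate 13, the 1 adrenal-bearing kidney among those 5, read 9.99.

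Genes of cholesterol supply mostly did not separate the kidneys. Of 10 measured genes 0 met both conditions, and their median difference was 0.02, against 17 of all 22180 genes and a median of -0.01. Scarb1, the receptor that takes up cholesterol from high-density lipoprotein, came nearest, with a lowest, median and highest value of 8.49, 9.37 and 10.09 in adrenal-bearing kidneys and 7.93, 8.05 and 8.69 in the others (difference 1.07, SE 0.20).

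Among genes of the capsule, progenitor layer and inner zone, Vsnl1 met both conditions and Dlk1, which marks the outer adrenal, separated the sets by 0.02 log2 units (5.88 to 6.57 against 5.46 to 5.86, difference 0.76). The other 10 of 12 overlapped. Akr1c18, known from the X-zone of the female mouse adrenal, read 10.84 to 11.75 in the 5 kidneys low in Y-linked transcripts, adrenal-bearing or not, and 7.78 to 8.85 in the other 10. In knockout replicate 13 it read 11.53, between the 2 knockout kidneys of that kind without adrenal transcripts (11.54 and 11.75) and the 2 wild-type ones (10.84 and 10.95).

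Transcripts of the medulla accompanied those of the cortex in the same 6 kidneys. None of them entered the rule. In the catecholamine list 3 of 10 measured genes met both conditions, in the granule list 3 of 16, and the median differences were 0.15 and 0.36. Of all 22180 genes 17 met both conditions, with a median difference of -0.01. The mean over the 10 catecholamine genes was 7.16 ± 0.20 (SD, n = 6) against 6.61 ± 0.03 (SD, n = 9).

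Th, tyrosine hydroxylase, which catalyses the first step from tyrosine to catecholamines, read 7.66 and 8.75 in the wild-type pair and 6.67, 5.98, 8.26 and 8.15 in the 4 knockout kidneys. It read 4.74 to 5.43 in the other kidneys, a difference of 2.46 (SE 0.32). Dbh, which makes noradrenaline, read 7.06, 7.75, 6.61, 5.82, 7.23 and 7.36 in the same order, against 4.80 to 5.51 elsewhere (difference 1.90, SE 0.20). Wild-type replicate 3 was highest for both genes, and knockout replicate 11 was again lowest of the 6.

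Pnmt, which converts noradrenaline to adrenaline, read 5.34, 6.05, 5.87, 5.11, 6.12 and 6.00, against 4.32 to 5.09 elsewhere (difference 1.05, SE 0.17). It was the gene nearest the size condition. Its difference fell short of 1 without wild-type replicate 3 (0.97), knockout replicate 12 (0.99) or knockout replicate 15 (0.99), and without the liver-bearing kidneys (0.90). Mgarp, a mitochondrial protein gene at 5.28 to 5.94 against 4.41 to 4.88, was just outside it (difference 0.91).

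Chgb, chromogranin B of the granule core, read 8.35 and 9.41 in the wild-type pair and 7.79, 6.40, 8.71 and 8.51 in the 4 knockout kidneys, against 4.51 to 5.12 elsewhere (difference 3.39, SE 0.32). Chga, chromogranin A, read 9.44, 10, 8.80, 7.54, 9.35 and 9.95, against 5.85 to 6.53 elsewhere (difference 3.09, SE 0.29). Scg2, secretogranin II, read 6.79, 7.09, 6.53, 6.05, 6.64 and 7.16, against 5.30 to 5.65 elsewhere (difference 1.27, SE 0.14).

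The upstream sequences of the granule genes and of Th are shown because 3 of these medulla genes carry the same 8 letters close to their start. Promoter windows of 250 bases upstream of the start were taken from RefSeq annotation of GRCm38.p6 and were matched for 10 of the 17 genes. Star, Cyp11b1, Cyp21a1, Cyp11b2, Mc2r, Kcnk9 and Pnmt were not matched. The motif of the cyclic AMP response element, TGACGTCA, which reads the same on both strands, was found in Th, Chgb and Scg2 and in 1.55% of all 32851 windows. The motif of SF-1, AAGGTCA, was searched on both strands and was found in 0 of the 10 and in 4.08% of all windows. Most of the cortex genes were not matched, so this count tells little about SF-1 at genes of steroid synthesis. A match is a description of letters and not a site of binding. Sequences run 5′ to 3′ on the gene's strand, and capitals mark TGACGTCA.
Th, chr7:142899996-142900245, minus strand: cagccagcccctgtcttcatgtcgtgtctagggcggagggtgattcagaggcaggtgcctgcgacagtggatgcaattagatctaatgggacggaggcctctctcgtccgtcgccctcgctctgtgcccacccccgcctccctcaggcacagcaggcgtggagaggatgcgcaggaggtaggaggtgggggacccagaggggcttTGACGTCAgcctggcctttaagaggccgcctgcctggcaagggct
Chgb, chr2:132781392-132781641, plus strand: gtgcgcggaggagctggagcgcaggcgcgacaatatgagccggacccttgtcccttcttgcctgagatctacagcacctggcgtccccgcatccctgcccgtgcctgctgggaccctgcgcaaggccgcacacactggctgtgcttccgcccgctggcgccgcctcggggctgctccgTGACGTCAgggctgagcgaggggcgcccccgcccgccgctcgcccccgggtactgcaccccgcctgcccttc
Scg2, chr1:79440027-79440276, minus strand: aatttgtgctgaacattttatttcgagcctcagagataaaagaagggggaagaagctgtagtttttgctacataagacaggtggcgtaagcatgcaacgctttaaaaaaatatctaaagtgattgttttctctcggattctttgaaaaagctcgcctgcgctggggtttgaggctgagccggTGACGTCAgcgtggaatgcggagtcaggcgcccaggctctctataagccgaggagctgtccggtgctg
Chga, chr12:102554691-102554940, plus strand: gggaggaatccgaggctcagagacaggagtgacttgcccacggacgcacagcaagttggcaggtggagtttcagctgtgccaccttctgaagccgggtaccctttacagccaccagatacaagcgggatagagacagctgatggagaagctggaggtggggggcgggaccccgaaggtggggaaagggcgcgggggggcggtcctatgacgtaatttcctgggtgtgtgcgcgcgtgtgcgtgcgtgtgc
Cyp11a1, chr9:57997774-57998023, plus strand: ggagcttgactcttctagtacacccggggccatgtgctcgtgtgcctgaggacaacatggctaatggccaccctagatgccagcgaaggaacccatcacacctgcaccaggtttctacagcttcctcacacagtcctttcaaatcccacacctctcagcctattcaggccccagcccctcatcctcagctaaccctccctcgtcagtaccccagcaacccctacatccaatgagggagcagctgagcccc
The motif began 45 bases before the start in Th, 72 in Chgb and 68 in Scg2. Neither motif was found as an exact match in the windows of Chga and Cyp11a1, shown for comparison. The Chga window holds tgacgtaa, which differs from TGACGTCA in a single letter and was not counted.

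Other medulla and nerve genes were weaker or overlapped. Npy, a peptide stored in the same granules, had a lowest, median and highest value of 7.70, 8.80 and 9.22 in adrenal-bearing kidneys and 7.28, 7.59 and 7.99 in the others. Gal, the peptide galanin, read 5.42, 6.13 and 6.51 against 4.99, 5.26 and 5.65. Snap25, of the exocytosis machinery, read 5.27, 6.21 and 7.07 against 4.65, 5.22 and 5.49. Pcsk1, a prohormone convertase, and Chrna3, a subunit of the nicotinic receptor through which splanchnic nerves drive chromaffin cells, separated the sets with differences of 0.49 and 0.57. Ddc, which follows Th, and Slc18a1, a vesicular monoamine transporter, were bright in all kidneys and differed by -0.20 and 0.05. Of 15 measured chromaffin identity genes 0 met both conditions, and likewise 0 of 5 Schwann cell genes. With 17 of all 22180 genes meeting them, 0 in lists this short tells little.

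Outside the lists, Prss35, a serine protease-like gene, read 6.75, 6.92, 6.86, 5.78, 6.88 and 6.70 in the 6 kidneys, against 4.97 to 5.63 elsewhere (difference 1.38, SE 0.14). The other probe set outside the lists belonged to Akr1cl, an aldo-keto reductase gene, named here after its values were seen. It read 5.36, 4.93, 5.76, 4.47, 5.85 and 7.75, against 3.22 to 4.17 elsewhere (difference 1.77, SE 0.36), while a second and on average brighter Akr1cl probe set lay at 4.57 to 4.90 and 4.67 to 5.01. Also higher without overlap, below the size condition, were Trank1 (0.80), Acsbg1, an acyl-CoA synthetase (0.70), Tmem255a (0.50), Olfr853 (0.39), Stmn3 (0.35) and Tub (0.17). The 3 genes lower without overlap were Them5 (-0.24), Tmem170 (-0.20) and Sdhd (-0.08), a subunit of mitochondrial complex II.

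The 6 kidneys did not rank alike for all 17 genes. Knockout replicate 13 was highest for 8 (Cyp11b1, Hsd3b1, Cyp11a1, Star, Cyp21a1, Mc2r, Vsnl1 and the medulla gene Scg2). Wild-type replicate 3 was highest for 7 (the medulla genes Chgb, Chga, Th and Dbh, the cortex genes Hsd3b6 and Kcnk9, and Prss35), and knockout replicate 12 for Cyp11b2 and Pnmt. On a linear scale, signal above the mean of the other 9 kidneys was set to 100% in knockout replicate 13 for each gene. In that kidney the steroidogenesis list mean minus the catecholamine list mean was 1.43. It was 0.35 to 0.92 in the rest of the 6. The percentages below are relative to that kidney and do not give shares of cortex and medulla. Over all 10 cortex genes counted, the median was then 52.0% in wild-type replicate 2, 50.6% in wild-type replicate 3, 35.4% in knockout replicate 10, 16.5% in knockout replicate 11 and 68.1% in knockout replicate 12. Over all 6 medulla genes counted it was 67.6%, 123%, 48.5%, 16.2% and 99.2% in the same order.

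The cortex genes spread widely within a kidney. In wild-type replicate 3 they ran from 24.0% (Hsd3b1) to 195% (Kcnk9), with Hsd3b6 at 162% and Cyp11b2 at 63.0%, and the medulla genes from 93.3% (Scg2) to 195% (Chgb). The ranges of cortex and medulla genes overlapped in each of these 5 kidneys. Genes of 1 kidney are not independent, the genes were chosen by their values, and RMA compresses dim values.

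**Figure D3:**
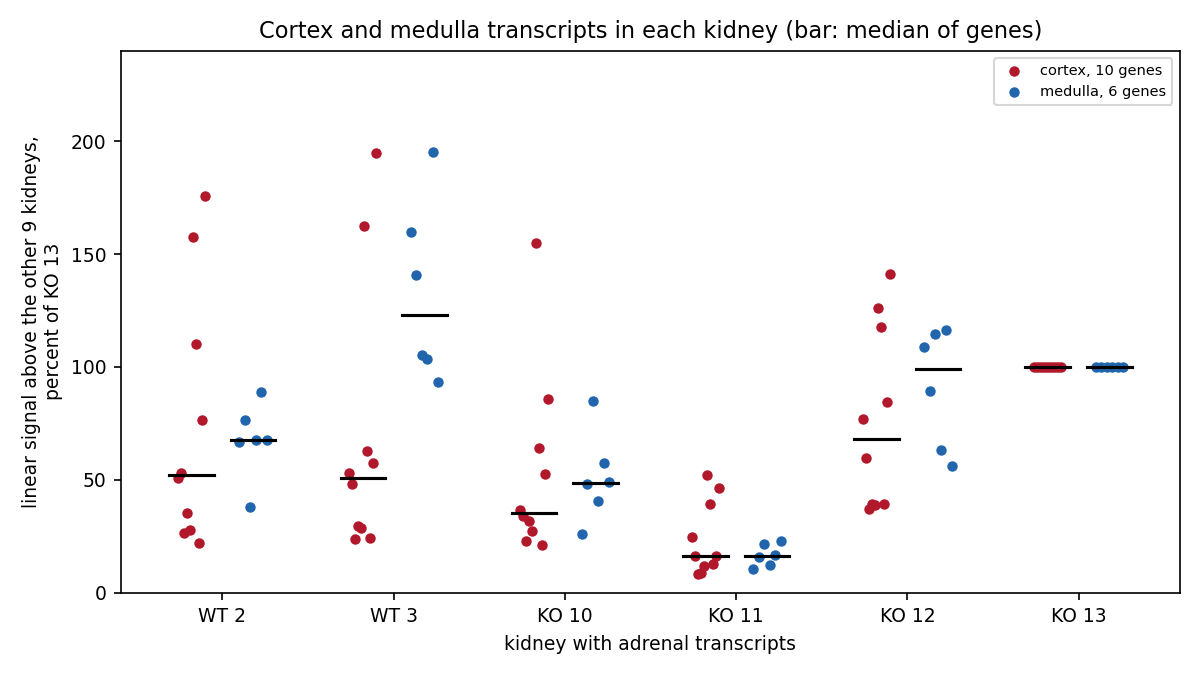
Linear signal above the mean of the other 9 kidneys, as a percentage of knockout replicate 13 (100% by construction), for each of 10 cortex genes (red; Star, Cyp11a1, Hsd3b1, Cyp21a1, Cyp11b1, Hsd3b6, Cyp11b2, Mc2r, Vsnl1 and Kcnk9) and 6 medulla genes (blue; Th, Dbh, Pnmt, Chga, Chgb and Scg2) in the 6 adrenal-bearing kidneys; bars are medians over genes. The medians of wild-type replicate 3 are 50.6% for cortex and 123% for medulla genes, and those of knockout replicate 11 are 16.5% and 16.2%. The percentages depend on the choice of knockout replicate 13 as reference.

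Across the 6 kidneys, the 7 steroidogenesis genes counted followed the mean of their list with Pearson r from 0.47 (Hsd3b6) to 0.99 (Cyp21a1), and Th, Dbh and Pnmt followed the mean of the catecholamine list with r of 0.99, 0.98 and 0.82. These genes are part of the means they were set against, and Star, Cyp11a1 and Hsd3b1 also chose the kidneys. Outside both lists, Kcnk9 gave r of 0.47 with the steroidogenesis mean and 0.82 with the catecholamine mean, and Prss35 gave 0.71 and 0.81. All these values share the same 6 arrays, and no p is given.

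Kidney, gonad and hormone-response genes did not separate the sets. Of 16 measured genes of kidney epithelium 0 met both conditions, with differences from -0.37 (Slc4a1, an anion exchanger) to 0.09 (Kap, an androgen-dependent kidney protein) and a median of -0.04. Slc34a1, the phosphate transporter of the proximal tubule, read 13.41 to 13.50 against 13.38 to 13.55. Of 13 measured targets and regulators of corticosteroids 0 met both conditions, with a median of 0.06. Sgk1, a kinase induced by aldosterone, read 8.68 to 9.38 against 8.64 to 9.82, and Hsd11b2, which shields the mineralocorticoid receptor from corticosterone, read 10.78 to 11.22 against 10.83 to 11.48. Of 9 measured gonad genes 0 met both conditions. Of all 22180 genes only 17 met them, so counts of 0 in lists this short tell little. Cyp17a1, which gonads express and adult mouse adrenals lack, read 5.0 to 5.67 against 4.89 to 7.90. The 7.90 was read in wild-type replicate 7, which also held liver transcripts. The rest of the kidneys without adrenal transcripts read 4.89 to 5.30.

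**Figure D4:**
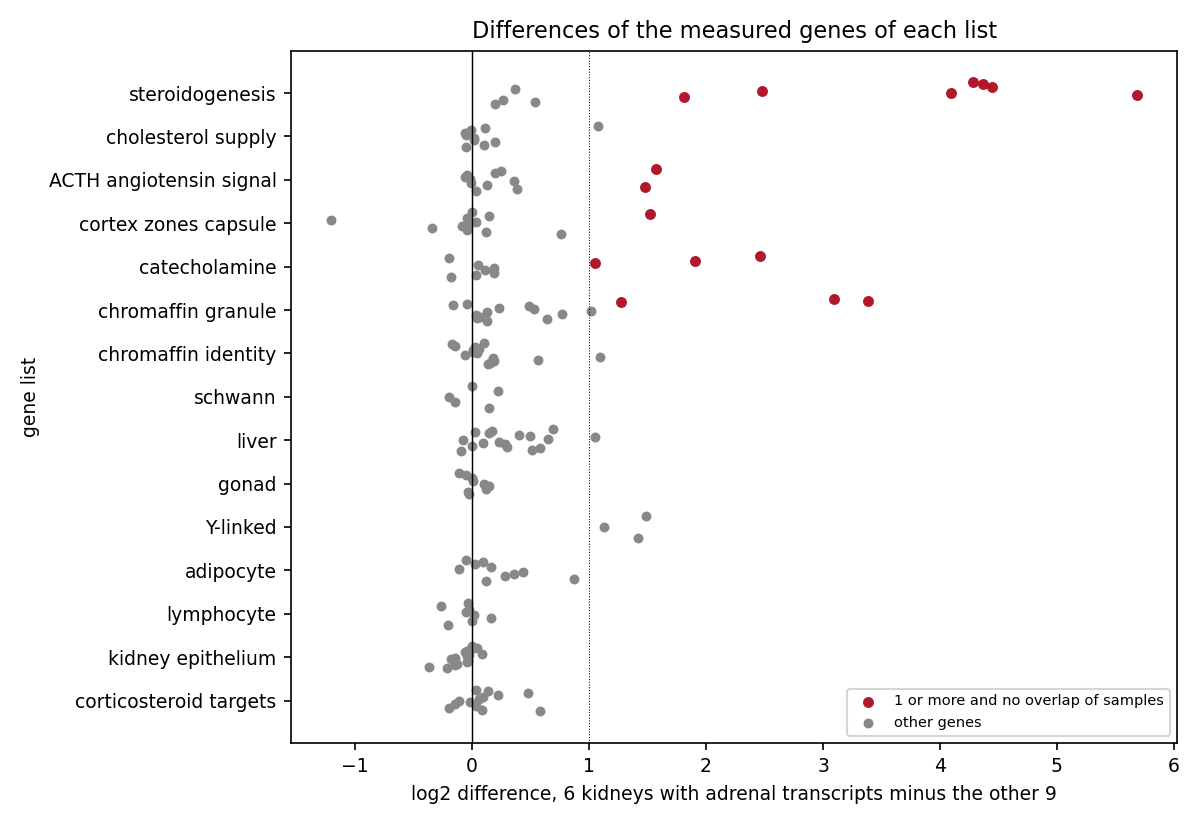
Each point is 1 measured gene of the list on the vertical axis, placed at its log2 difference, adrenal-bearing minus other kidneys; red points are at least 1 (dotted line) with no overlap between the 6 and the 9 kidneys. Red points lie in the steroidogenesis, ACTH and angiotensin, cortex zone, catecholamine and granule lists only.

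Liver and Y-linked transcripts were unevenly spread between the sets. Their part in the differences above was not tested except by the values that follow. Liver transcripts (17 measured genes, list mean over 1 log2 unit above the median) were present in wild-type replicate 3 and knockout replicate 10 among the 6 and in wild-type replicate 7 among the 9, and the list mean ranged from 5.86 to 7.92 and from 5.92 to 10.2. Without these 3 kidneys the difference was 5.77 for Cyp11b1, 4.39 for Star, 2.33 for Th and 2.94 for Chga, and 16 of the 17 genes still met both conditions, all but Pnmt. Y-linked transcripts were present in 5 of the 6 and in 5 of the 9 kidneys. With the mean of the 3 measured Y-linked genes as a covariate all 17 genes still met the size condition, Pnmt at 1.01. The overlap condition could not be lost in either fit. Leaving out kidneys creates no overlap, and the covariate does not enter that condition. Fat genes overlapped, with list means of 7.93 to 8.69 and 7.48 to 8.35, as did those of lymphocytes at 6.37 to 7.74 and 6.41 to 8.04.

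Adrenal transcripts were found in both genotypes. They were present in 4 of 8 knockout kidneys (50%) and 2 of 7 wild-type kidneys (28.6%), an odds ratio of 2.5 with a two-sided Fisher's exact p of 0.608. Genotype comes from the labels, so the genotype difference could be tested within each set. The 4 combinations of genotype and set were fitted together in limma with 1 shared spread, over all 23521 probe sets with Benjamini-Hochberg adjustment at 0.05. For 2 wild-type against 4 knockout kidneys an exact permutation test has only 15 splits and cannot give a p below 0.133.

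None of the 17 genes passed for genotype. Within the adrenal-bearing kidneys their differences, knockout minus wild type, ran from -1.03 (Chgb) to 0.38 (Mc2r) with a median of -0.21 against 0.01 over all genes, and the smallest adjusted p was 0.523 (Kcnk9, -0.67). In that fit 2 of the 17 had an unadjusted p under 0.05, against 5.72% of all probe sets. With the mean of Star, Cyp11a1 and Hsd3b1 added as a number, 7 of the 17 had an unadjusted p under 0.05, against 5.79% of all probe sets, and 1 of the 7, Cyp11a1, is part of the added mean. The lowest adjusted p was 0.385 (Chga, -0.81, SE 0.20), and none passed. Among the 7 were the medulla genes Chgb, Chga, Th, Dbh and Scg2. The 17 genes were chosen by their values in these kidneys, share the same arrays and are not independent. Neither count, 2 or 7, is therefore a test against the share of all probe sets. The 2 wild-type kidneys include wild-type replicate 3, which had the highest Th, Dbh, Chga and Chgb values. In the adrenal-bearing set Y-linked transcripts were present in 2 of 2 wild-type and 3 of 4 knockout kidneys, and liver transcripts in 1 of each. Their part in the genotype differences within the set was not tested beyond the fits given here and under the processing alternatives.

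Rec8, a cohesin subunit known from meiosis, was lower in knockout kidneys in both sets. In adrenal-bearing kidneys it read 5.89 and 6.14 in wild type and 5.16, 4.77, 5.06 and 4.90 in knockout, and in the others 5.81 to 6.40 in wild type and 5.01 to 5.22 in knockout. The differences were -1.05 (SE 0.14, limma adjusted p = 0.0445) and -1.02 (SE 0.11, limma adjusted p = 0.00292). Leaving out each kidney in turn, the first call was kept without wild-type replicate 1, wild-type replicate 6 or knockout replicate 10 and lost in the other 12 of 15 fits, with differences from -1.17 to -0.92 and adjusted p up to 0.391. The second was kept in all 15.

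Greb1, an oestrogen-responsive gene on the chromosome of Grhl1, was higher in knockout kidneys that bore no adrenal transcripts (6.50 to 7.08 against 4.88 to 5.13; difference 1.78, SE 0.15, limma adjusted p = 0.000189). In adrenal-bearing kidneys it read 5.55 and 5.70 in wild type and 6.65, 6.53, 6.94 and 7.18 in knockout, a difference of 1.20 that missed the threshold (SE 0.19, limma adjusted p = 0.0573). It passed under 3 alternatives, with only the brighter probe sets (limma adjusted p = 0.0347), with eBayes trend (limma adjusted p = 0.0403) and with the Y-linked mean added to the fit (1.12, limma adjusted p = 0.00988). The difference between the 2 sets, -0.57 (SE 0.24), did not pass (limma adjusted p = 0.999994). Both adrenal-bearing wild-type kidneys read higher than the 5 other wild-type kidneys.

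Hspa1b, an inducible heat shock chaperone of the cytosol, was lower in knockout kidneys within the adrenal-bearing set, at 10.98 and 11.47 in wild type and 8.26, 8.48, 8.26 and 9.08 in knockout (difference -2.70, SE 0.36, limma adjusted p = 0.0445). In the other kidneys it read 9.32 to 10.76 in wild type and 8.49 to 9.10 in knockout (difference -0.86, SE 0.28, limma adjusted p = 0.999865). The genotypes did not overlap there either. The difference between the sets, -1.84 (SE 0.46), did not pass (limma adjusted p = 0.999994). Leaving out each kidney in turn, the call was kept without wild-type replicate 1 or knockout replicate 13 and lost in the other 13 of 15 fits, with differences from -2.95 to -2.46 and adjusted p up to 0.386. Without the 3 liver-bearing kidneys, which left wild-type replicate 2 as the 1 wild-type kidney of the set, the difference was -2.37 (limma adjusted p = 0.689).

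These were all the calls. Rec8 and Hspa1b were the 2 probe sets (0.0085%) that passed, both lower, in adrenal-bearing kidneys, and 1346 had an unadjusted p under 0.05. In the other kidneys Greb1 passed higher and Rec8 lower (0.00425% each), with 1086 at an unadjusted p under 0.05. The test of a difference between the sets called 0 probe sets in limma, with 1041 at an unadjusted p under 0.05. With the set as a covariate in all 15 kidneys, Greb1 (1.56, SE 0.13) and Rec8 (-1.03, SE 0.08) passed, both at a limma adjusted p of 6.49e-05. Cys1, a cilium gene also on that chromosome, was at -0.57 (SE 0.09, limma adjusted p = 0.0811) and Grhl1 itself at -0.41 (SE 0.07, limma adjusted p = 0.108). With the Y-linked mean added to this fit both passed, Cys1 at -0.57 (limma adjusted p = 0.0369) and Grhl1 at -0.42 (limma adjusted p = 0.0377). Without the set as a covariate 3 probe sets passed, Cys1 being the third.

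**Figure D5:**
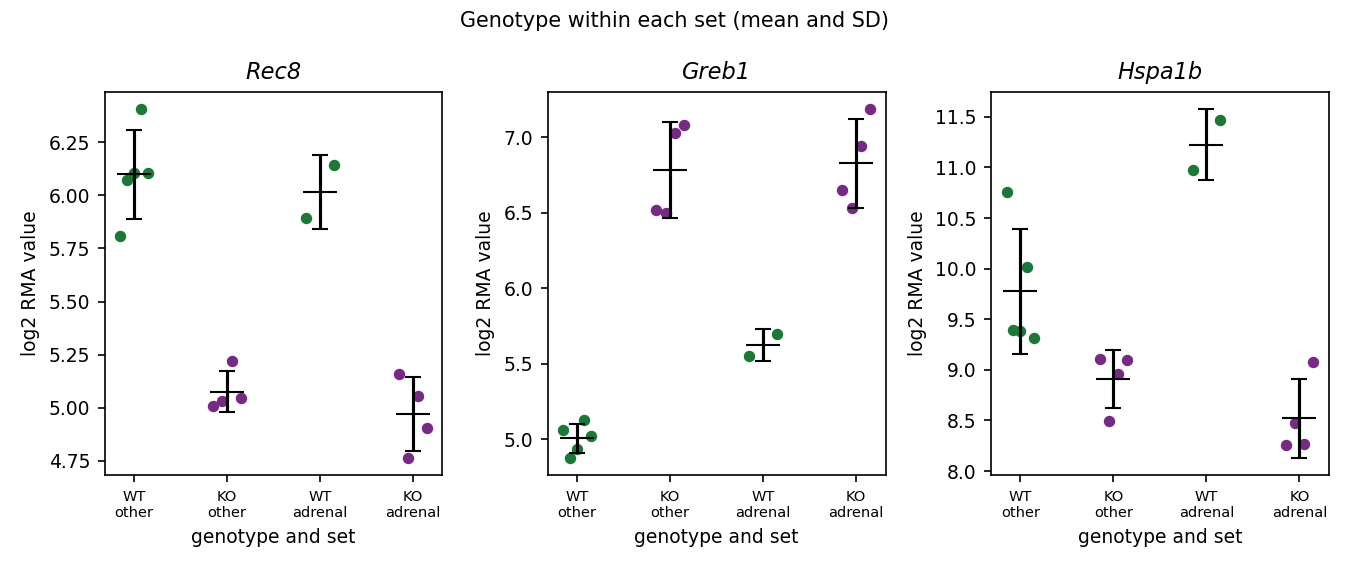
Log2 RMA values of Rec8, Greb1 and Hspa1b for each kidney (points), with mean and SD (bars), in wild-type (n = 5) and knockout (n = 4) kidneys without adrenal transcripts and in wild-type (n = 2) and knockout (n = 4) kidneys with them. Rec8, Greb1 and Hspa1b each separate the genotypes without overlap in both sets. The 2 adrenal-bearing wild-type kidneys have the highest Hspa1b values (10.98 and 11.47).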

How the data were processed

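Kidney RNA of 15 mice was labelled (Ambion WT Expression kit) and measured on 1-colour arrays, per the labels' protocols. The authors deposited log2 values per probe set made with RMA, a background correction with quantile normalisation and a joint fit of each set's probes; the method is named in the submitters' processing notes. The software version and the array's genome build are not given in the sources used here. RMA compresses dim probe sets and removes a shift common to most transcripts. The number of arrays limits precision. Array medians lay between 5.51 and 5.59, and the pairwise correlation of arrays between 0.976 and 0.991, with 0 identical pairs.

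Of 41345 probe sets, the platform annotation gave 1 gene symbol to 23521, several to 1814 and none to 16010. Symbols were updated by Entrez ID to RefSeq genes for 23328. The brightest probe set stood for a gene. Models were fitted with limma 3.58.1 in R 4.3.3 (lmFit, eBayes), and exact tests used scipy 1.17.1. All tests were two-sided. The genotype fit with the adrenal set as a covariate was tested on simulated data before use.

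The kidneys, the 15 gene lists (189 genes, 166 measured) and the tests were chosen with earlier results of these data known. Named genes were the rule and marker genes, up to 6 members per list with the largest difference, the leading genes outside the lists without overlap, and genes past a genotype test with Grhl1, Greb1, Rec8 and Cys1. Other list members, and Akr1cl, were named after their values were seen. Alternatives changed the covariates, samples, filter, probe sets, membership rule and size condition.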

Additional observations from a re-analysis of the deposited data

Results flagged for a closer look

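In each genotype the kidney farthest from the rest was compared with the spread of its group, for 98 combinations of gene or list mean and genotype, and 3 (3.06%) stood apart beyond Dixon's 95% limit, which chance passes in about 1 of 20 groups. Tub read 5.08 in knockout replicate 14 and 5.28 to 5.44 in the other 7 knockout kidneys. The liver list mean was 7.81 in knockout replicate 10, which is adrenal-bearing, and 5.86 to 6.11 in the other 7. Knockout replicate 10 was named liver-bearing by this same list mean, so this flag repeats that choice. The adipocyte list mean was 7.48 in wild-type replicate 5 and 7.82 to 8.08 in the other 6 wild-type kidneys.

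Among the probe sets left out of the comparisons because they had no single gene symbol, 2 met both conditions. Probe set 17457158, unnamed here, read 5.23 to 7.35 in adrenal-bearing kidneys and 3.41 to 4.06 in the others (difference 2.25, SE 0.26). Probe set 17435811, annotated with several symbols, read 8.37 to 9.93 and 7.06 to 7.92 (difference 1.29, SE 0.19). Both were highest in knockout replicate 13.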

How the results depend on the processing

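Membership was the same with a threshold of 0.5 or 2 and with the steroidogenesis list mean. The number of probe sets higher in adrenal-bearing kidneys was 9 at a size condition of 2, 17 to 23 without 1 kidney, and 0 were lower under every alternative run. The catecholamine difference stayed between 0.52 and 0.62. The steroidogenesis difference, 2.59, stayed between 2.40 and 2.74 under the other alternatives and was 1.93 without the 3 rule genes, an alternative chosen after seeing the data. Of 357 values for the 17 genes under 21 alternatives 0 changed sign, and 1 moved beyond the spread of the 6 kidneys, Cyp11a1 averaged over both probe sets (2.25). The 17 genes were chosen because their values did not overlap, so leaving out 1 kidney could not change a sign. The other membership rules kept the same 6 kidneys. The lack of sign changes is therefore no measure of how stable these genes are.

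Genotype calls moved most when the Y-linked mean was added to the fit, from 2 to 16 with the adrenal set as covariate (Grhl1 and Cys1 among them) and from 2 to 16 within adrenal-bearing kidneys. With only the brighter probe sets (40th percentile or above), which left Rec8 out, these 2 counts were 1 and 10, and 1 in the other kidneys. Within adrenal-bearing kidneys 13 passed with eBayes trend, and 0 without liver-bearing kidneys or with the mean of the rule genes added as a number. Leaving out 1 kidney gave 2 to 6 calls with the adrenal set as covariate (6 without knockout replicate 8), 2 to 3 in the other kidneys, 0 to 7 in adrenal-bearing kidneys (7 without wild-type replicate 1) and 0 to 1 for the difference between sets (1 without wild-type replicate 1). Where 1 wild-type kidney was left in the adrenal-bearing set, it was assumed to vary like the other groups. The causes of these shifts were not tested. No paired analysis was possible because wild-type and knockout samples share no replicate numbers. The small number of wild-type kidneys limits what the adrenal-bearing set can show.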
